A study of Homo sapiens with 8 samples.

Results

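KASUMI-1 cells kept in vehicle, without any LSD1 inhibitor, were compared at 72 h and at 6 h, a comparison in which time in culture and the library itself cannot be told apart. The comparison used 2 of the 8 RNA-seq libraries of the series, chosen by their labels: KASUMI-1 with vehicle for 6 h and KASUMI-1 with vehicle for 72 h. KASUMI-1 is an acute myeloid leukemia line that carries the RUNX1::RUNX1T1 fusion. The other libraries were KASUMI-1 with the LSD1 inhibitor DDP38003 at 0.5 µM for 6 and 72 h (called LSD1i here), and THP-1, a monocytic leukemia line, with vehicle or the inhibitor for 24 and 72 h. Every group was 1 library of 1 line with no engineered allele named in the labels. The vehicle pair therefore has no replicate and no test: a ratio is given with an exact 95% interval that covers counting error only. As a partial repeat, the inhibitor pair of the same line (72 h against 6 h, no library shared) was set beside each result. A fit over all 8 libraries tested the KASUMI-1 time effect averaged over both agents.

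Leukemia cells in suspension culture use up nutrients, sterols and serum factors and respond to handling between feeding and harvest. Heat shock factors induce chaperones such as HSPA1A after proteotoxic stress, interferon-stimulated genes such as IFIT1 follow STAT and IRF activity, and NRF2 controls glutathione genes. When cells run short of sterols, SREBP2 (gene SREBF2) moves to the nucleus and raises the enzymes of cholesterol synthesis. Annexin A1, vimentin, lamin A and galectin 1 are associated in blood cells with maturation, adhesion and the cytoskeleton.

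The sequences below lie upstream of list members at least 2-fold higher or lower at 72 h. They were picked among such genes whose promoter held the motif searched for their list. Genes as far apart without it (FADS2, TM7SF2, NQO1, TKT, RSAD2 and HERC6 in these lists) are not shown. The sequences are in GRCh38.p14 from RefSeq, each the 200 bases before the start site, 5′ to 3′ on the gene's strand. Capitals mark a match, on either strand, to the motif searched for that gene's list: GAANNTTC (heat shock element core) in HSPA1A, TTTCNNTTT (interferon-stimulated response element core) in IFIT1 and IFI44, TCACNCCAC (a sterol regulatory element) in SREBF2, and TGACNNNGC (antioxidant response element core) in GCLM. Positions are chr6:31815343-31815542 (+), chr10:89392423-89392622 (+), chr1:78649589-78649788 (+), chr22:41832905-41833104 (+) and chr1:93909431-93909630 (-), in that order.
HSPA1A: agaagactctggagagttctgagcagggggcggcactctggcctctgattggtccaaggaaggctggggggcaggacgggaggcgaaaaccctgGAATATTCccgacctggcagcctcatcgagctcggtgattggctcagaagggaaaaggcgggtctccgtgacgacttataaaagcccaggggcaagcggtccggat
IFIT1: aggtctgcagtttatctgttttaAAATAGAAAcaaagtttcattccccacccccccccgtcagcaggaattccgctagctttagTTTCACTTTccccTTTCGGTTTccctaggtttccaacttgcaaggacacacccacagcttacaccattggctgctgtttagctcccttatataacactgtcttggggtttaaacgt
IFI44: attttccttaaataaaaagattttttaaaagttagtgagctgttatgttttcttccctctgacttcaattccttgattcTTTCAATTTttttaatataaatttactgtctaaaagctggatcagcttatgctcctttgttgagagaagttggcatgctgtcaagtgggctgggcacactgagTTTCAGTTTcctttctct
SREBF2: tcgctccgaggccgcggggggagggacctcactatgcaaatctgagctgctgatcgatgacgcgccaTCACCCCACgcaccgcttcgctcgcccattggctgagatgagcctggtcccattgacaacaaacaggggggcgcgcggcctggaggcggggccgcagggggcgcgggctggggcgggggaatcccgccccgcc
GCLM: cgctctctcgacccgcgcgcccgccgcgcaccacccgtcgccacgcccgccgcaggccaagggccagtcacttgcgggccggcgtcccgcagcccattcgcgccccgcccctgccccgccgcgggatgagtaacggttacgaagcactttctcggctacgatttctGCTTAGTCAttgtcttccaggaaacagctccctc
A match is a description and not a binding site. Among 27305 promoters, from 250 bases before to 50 after the start site, the heat shock core was found in 6.87%, the interferon core in 10.6%, the sterol element in 1.15% and the antioxidant core in 13.6%.

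The libraries held 41200025 counted reads at 6 h and 23722972 at 72 h, the lowest total of the 8. Of 33045 gene names, 10891 had a mean of at least 2 CPM (read counts scaled to library size with TMM factors) in the vehicle pair. The line markers were in place: the 12 KASUMI-1 markers summed to 1706 CPM at 6 h and 2001 CPM at 72 h, against 107 to 130 CPM in the THP-1 libraries. The 12 THP-1 markers summed to 74.0 and 71.0 CPM, against 441 to 544 CPM in THP-1. Ratios followed base composition. Across 5 equal bins of transcript GC content the median log2 ratio ran from -0.28 in the most AT-rich bin through -0.17, -0.09 and 0.07 to 0.26 in the most GC-rich, with a correlation across 10306 genes of 0.51. The same correlation was 0.22 in the inhibitor pair, 0.34 in THP-1 vehicle (72 h against 24 h) and -0.12 in THP-1 LSD1i, across genes that share libraries and are no replicates. No such slope appeared with exon length, where the medians of 5 such bins lay between -0.07 and -0.03. The part of GC content in any single gene's ratio was not tested, and values re-centred by GC (the median ratio of 20 GC bins subtracted) are given beside the results.

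**Figure D1:**
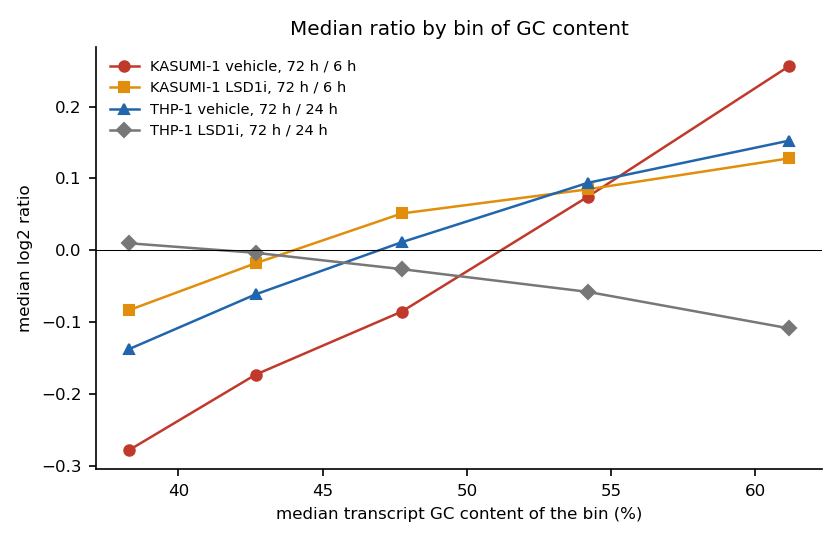
Median log2 ratio of the later over the earlier library (y axis) against the median transcript GC content of each of 5 equal bins of genes in percent (x axis), for the 4 time pairs, 1 line per pair. The KASUMI-1 vehicle pair had the steepest slope, from -0.28 to 0.26, and the THP-1 LSD1i pair sloped the other way.

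At 72 h, 73 genes (0.67% of those measured) were at least 2-fold higher than at 6 h, and 85 genes (0.78%) were at least 2-fold lower, each with a counting interval that excluded equality. The middle of the distribution moved little: the median log2 ratio was -0.06 and the quartiles were -0.27 and 0.19. The balance of directions depended on the scaling. Higher genes were 46.2% of the 158 genes apart with TMM over 8 libraries, 56.2% with TMM over the vehicle pair, 57.8% with DESeq2-type size factors and 61.9% with total counts, while these scalings moved the median gene by 0.05 to 0.07. After GC centring 39 genes of 10306 (0.378%) were higher and 64 (0.621%) were lower. The GC-centred set kept 27 of the 73 higher and 55 of the 85 lower genes, and 8 and 15 of them had no GC value.

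**Figure D2:**
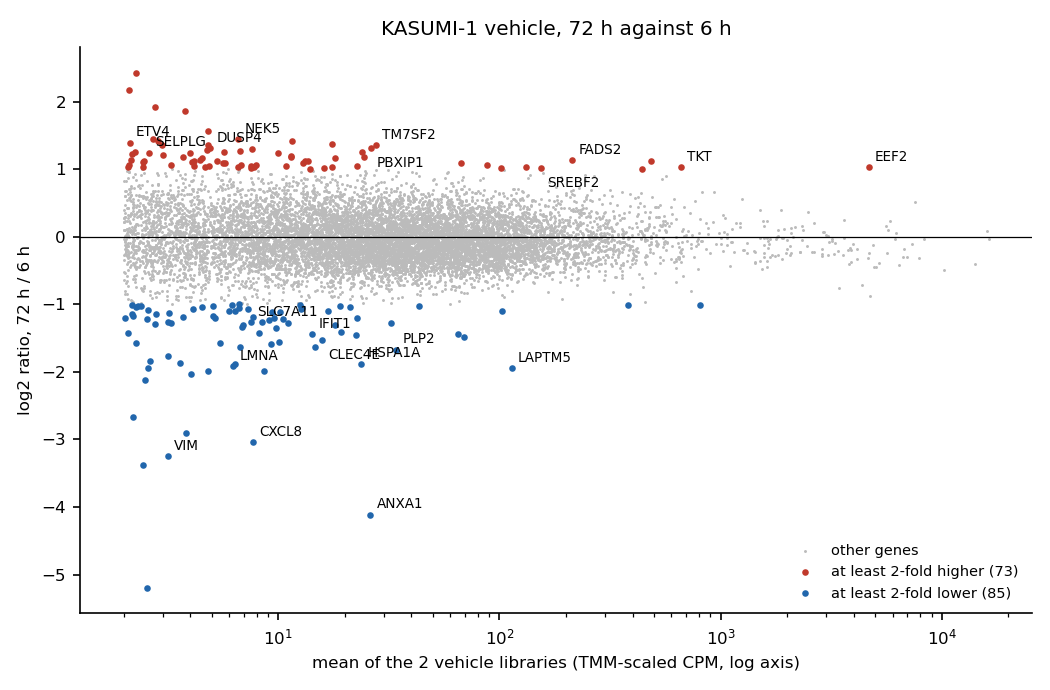
Log2 ratio of KASUMI-1 vehicle 72 h over 6 h (y axis) against the mean of both libraries in TMM-scaled CPM (log x axis), 1 point per gene with at least 2 CPM. Red points (73) and blue points (85) were at least 2-fold higher or lower. Among genes with at least 5 CPM the ratios ran from -4.11 (ANXA1) to 1.45 (NEK5).

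In the list of 29 measured adhesion, matrix and cytoskeleton genes 4 were at least 2-fold lower at 72 h, against 0.78% of all genes, and 1 was higher, against 0.67%. The list median was 0.08 and 18 members lay above 0, so the list as a whole did not lie lower. The fit called 6 of 51 members lower and 6 higher, against 2.55% lower and 4.76% higher over all genes. The higher member of the vehicle pair was SELPLG (the P-selectin ligand), at 1.52 and 3.67 CPM. Among the others called higher were CD44 (the hyaluronan receptor) and ITGA6 (integrin alpha 6). With vehicle, CD44 was at 378 and 519 CPM and ITGA6 at 28.3 and 41.0 CPM. These calls average both agents, and the log2 ratio of CD44 was 0.46 with vehicle and 1.19 with the inhibitor. ANXA1 (annexin A1, a calcium-dependent membrane binding protein, at chr9:74956601-74975129 of NCBI36) was at 49.3 CPM (1886 reads) at 6 h and 2.80 CPM (65 reads) at 72 h, which is 17.6-fold lower (interval 13.7 to 22.9). In the inhibitor pair it was at 47.7 and 2.23 CPM. Both 72 h libraries thus lay far below both 6 h libraries, and the fitted time effect was -4.27 ± 0.19 (log2, SE; edgeR adjusted p = 2.2e-10).

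VIM (vimentin, the intermediate filament of mesenchymal and many blood cells) was at 5.78 CPM at 6 h and 0.561 CPM at 72 h with vehicle, 10.3-fold lower (5.9 to 19.7). With the inhibitor it was at 9.44 and 1.67 CPM. LMNA (lamin A/C of the nuclear lamina) was at 9.94 and 2.59 CPM with vehicle, and at 13.1 and 1.79 CPM with the inhibitor. The fit called both lower, VIM by -2.73 ± 0.21 (edgeR adjusted p = 1.2e-06) and LMNA by -2.43 ± 0.21 (edgeR adjusted p = 4.1e-06). For each of these genes the earlier and later KASUMI-1 libraries did not overlap.

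S100A10 (a partner of annexin A2) had 89 reads at 6 h and 1 read at 72 h, a ratio of 53.96 with an interval from 9.44 to 2155. KIFC3 (a kinesin) had 63 reads and 1 read, a ratio of 38.2 with an interval from 6.61 to 1532. MCEMP1 (a membrane protein of mast cells and monocytes) had 40 reads and 0 reads, so it was at least 8.08-fold lower against a floor of 3 reads in the 72 h library. The fit called all 3 lower (edgeR adjusted p = 1.2e-05, 0.00047 and 0.0011). Each of the 3 had a mean below 2 CPM in the vehicle pair, so none is among the 85 lower genes. Of genes picked after their values were seen, CRIP2 (a LIM domain protein) was at 4.99 CPM (191 reads) and 0.0863 CPM (2 reads), a ratio of 57.9 with an interval from 15.8 to 482. EMP1 (an epithelial membrane protein) was at 4.52 and 0.388 CPM, and AHNAK (a giant scaffold protein under the membrane) at 6.54 and 1.55 CPM.

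Several of these genes are abundant in THP-1, and others are not. In THP-1 vehicle libraries (24 and 72 h) ANXA1 was at 177 and 106 CPM, VIM at 69.8 and 65.8 CPM and LMNA at 114 and 135 CPM. By contrast CRIP2 was at 0.468 and 0.217 CPM there, and EMP1 at 0.191 and 0.169 CPM. S100A9, a calcium-binding protein of monocytes at 260 and 124 CPM in THP-1, was at 6.28 CPM at 6 h and 6.00 CPM at 72 h in the vehicle pair, where it did not move. Of 22 monocyte and macrophage genes measured in the vehicle pair, 12 lay below 0 and 10 above, with log2 ratios from -1.76 to 0.86. The fit called 5 of 49 such genes lower and 2 higher, against 2.55% and 4.76% of all genes. A part of RNA from other cells in the 6 h libraries was not tested beyond these values.

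LAPTM5 (a lysosomal membrane protein of blood cells that lowers antigen and cytokine receptors) was the most abundant of the 15 lowest genes with at least 5 CPM. It was at 180 CPM at 6 h and 46.9 CPM at 72 h with vehicle, 3.84-fold lower (3.61 to 4.10), and at 187 and 93.3 CPM with the inhibitor. LST1 (a leukocyte transcript of the MHC class III region) was at 13.8 and 3.45 CPM with vehicle and at 13.2 and 3.44 CPM with the inhibitor, so the pairs lay on top of each other. CLEC4E (the C-type lectin Mincle) was at 23.6 and 8.15 CPM with vehicle and at 18.1 and 7.61 CPM with the inhibitor. MFAP4 (a microfibril-associated protein) was at 33.1 and 11.99 CPM with vehicle and at 26.3 and 9.82 CPM with the inhibitor.

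For 4 others of the 15 lowest the vehicle pair stood further apart than the inhibitor pair. PLP2 (a membrane proteolipid) was at 51.9 and 16.3 CPM with vehicle, 3.19-fold lower (2.86 to 3.57), but at 49.6 and 36.5 CPM with the inhibitor. ID2 (an inhibitor of basic helix-loop-helix factors) was at 22.2 and 7.16 CPM with vehicle and at 22.8 and 16.1 CPM with the inhibitor. LGALS1 (galectin 1) was at 10.2 and 3.23 CPM with vehicle and at 11.5 and 8.55 CPM with the inhibitor. LPXN (leupaxin, a focal adhesion protein) was at 10.02 and 2.67 CPM with vehicle and at 14.5 and 10.5 CPM with the inhibitor. In these 4 genes the 72 h vehicle library was the lowest of the 4 KASUMI-1 libraries. Whether time acted differently with and without the inhibitor could not be tested, since each side is 1 library. The last genes of the 15 were CXCL8, HSPA1A and HSPA1B, described below, NRP1 (neuropilin 1) with a log2 ratio of -1.57, and the small nucleolar RNA SNORD47 with -1.56.

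All 15 lowest genes stayed at least 2-fold lower under the 3 other scalings and with the 6 h library thinned to the 72 h total. This was close to given, since MFAP4, the least far apart of them, stood at -1.46. The scalings moved the median gene by 0.05 to 0.07, and the thinning by less. The 14 with a GC value also stayed at least 2-fold lower after GC centring. All 15 also had a counting interval below equality in the inhibitor pair, 8 of them at least 2-fold. The fit called all 15 lower, but it includes the vehicle pair by which they were picked, so these calls are no separate check. Over the whole set, 67 of the 85 lower genes (78.8%) had an interval below equality in the inhibitor pair, against 30.3% of all genes measured. The count in the opposite direction was 2.

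**Figure D3:**
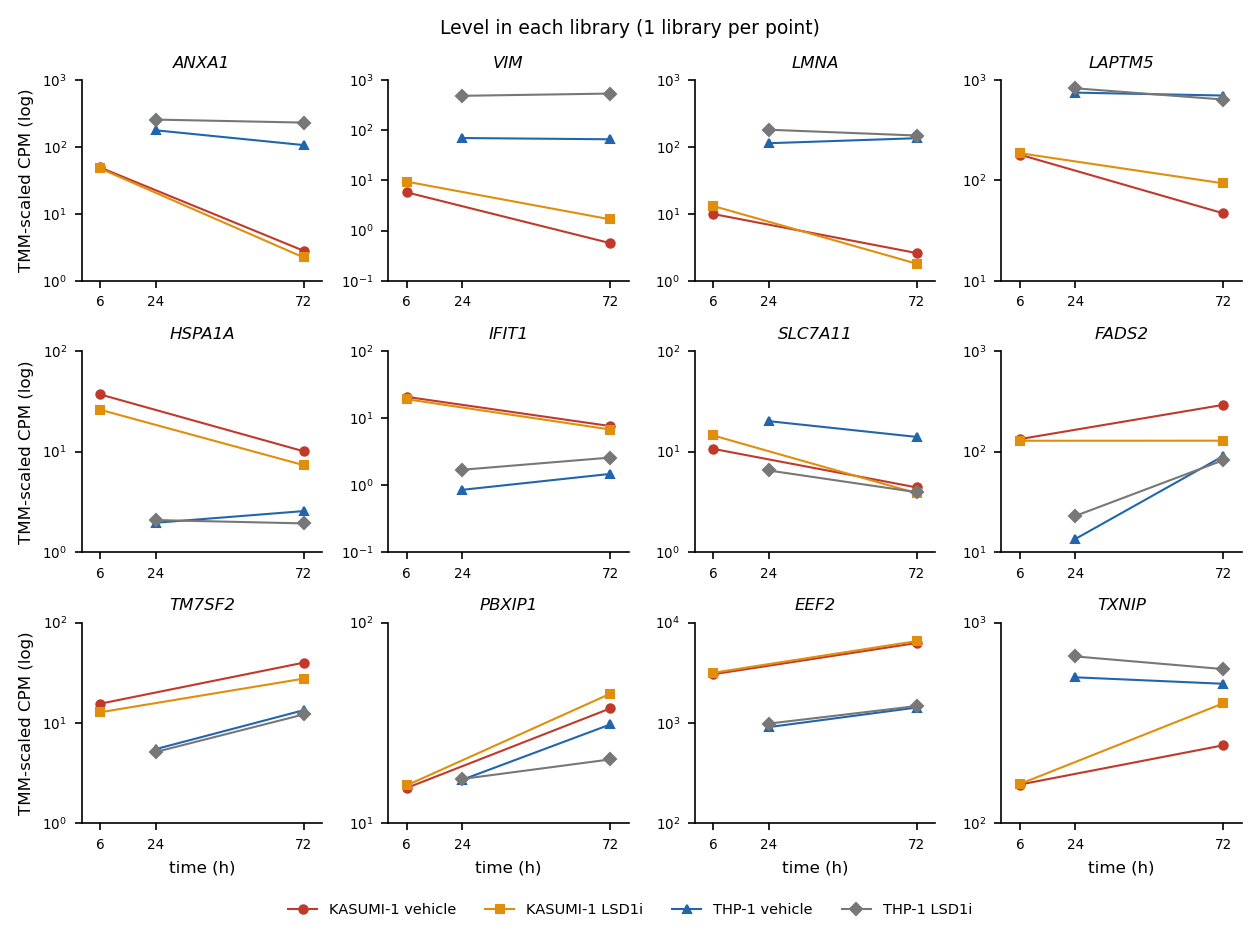
Level of 12 genes in the 8 libraries (TMM-scaled CPM, log y axis) against time in hours (x axis), 1 point per library, lines joining the libraries of the same line and agent. ANXA1, VIM, LMNA, HSPA1A and IFIT1 were lower at 72 h in both KASUMI-1 agents, while FADS2 was higher at 72 h in the vehicle pair (134 and 293 CPM) and level in the inhibitor pair (129 and 129 CPM).

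Chaperone genes were lower at 72 h as a group. The 32 members of the heat shock and unfolded protein list had a median log2 ratio of -0.36, against -0.06 over all genes. Of them, 25 lay below 0 and 2 were at least 2-fold lower, against 0.78% of all genes. With GC centring the median was -0.26 and 26 lay below 0. HSPA1A, the inducible HSP70, was at 37.2 CPM at 6 h and 10.1 CPM at 72 h with vehicle, 3.69-fold lower (3.21 to 4.26), and at 26.2 and 7.34 CPM with the inhibitor. Its near-identical copy HSPA1B was at 14.02 and 4.61 CPM with vehicle. Reads that fit both copies, or the extra chromosome 6 haplotypes of the annotation, can be lost or misassigned, so the levels of this pair of genes are uncertain.

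Large HSP110 and HSP40 genes moved with them: HSPH1 was at 252 and 133 CPM and DNAJA1 at 500 and 277 CPM. The constitutive HSP90AB1 was at 1997 and 2189 CPM, and calreticulin (CALR) at 2990 and 3031 CPM, with little difference. The fit called 10 of 32 members, all of them lower, where 2.55% of the 16060 genes fitted were called lower and 4.76% higher: HSPA1A by -1.84 ± 0.16 (edgeR adjusted p = 4.1e-06), HSPA1B, HSPH1, DNAJA1, DNAJB1, HSPE1, and the endoplasmic reticulum genes HSPA5, MANF, CRELD2 and DNAJB11. Promoters of 6 of 30 members held the heat shock core. The median log2 ratio of those 6 was -0.89, and that of the 24 without it was -0.28.

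Interferon-stimulated genes were lower too. Of 37 members measured, 29 lay below 0 and 8 were at least 2-fold lower, against 0.78% of all genes. The median log2 ratio was -0.38 (-0.32 with GC centring). IFIT1, which binds viral RNA caps, was at 20.9 CPM at 6 h and 7.63 CPM at 72 h with vehicle, 2.73-fold lower (2.32 to 3.24). With the inhibitor it was at 19.2 and 6.79 CPM, nearly the same levels. IFI44 was at 4.11 and 0.906 CPM with vehicle, 4.53-fold lower (2.86 to 7.53).

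IFIT2 was at 25.7 and 10.4 CPM, RSAD2 (viperin) at 13.99 and 5.48 CPM and the ubiquitin-like ISG15 at 11.9 and 4.96 CPM with vehicle. Other members went the other way or stood still: PARP14 was at 21.6 and 31.5 CPM and LY6E at 177 and 237 CPM. The fit called 11 of 49 members lower, against 2.55% of all genes, and 3 higher, near the 4.76% of all genes called higher. IFIT1 fell by -1.46 ± 0.17 (edgeR adjusted p = 8.8e-05), while PARP14 rose by 0.75 ± 0.14 (edgeR adjusted p = 0.0033), UBE2L6 by 0.66 and IFI35 by 0.62. The list median in the inhibitor pair was -0.02, so the list as a whole did not lie lower there even though IFIT1, IFIT2 and IFI44 did. Of 29 members with a promoter sequence 19 held the interferon core, with a median of -0.38, and the 10 without it had a median of -0.45.

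Stress genes downstream of NRF2, metals and amino acid shortage included single large differences, while the list medians lay between -0.17 and -0.09, against -0.06 over all genes. The calls of the fit lay mostly on the lower side: 5 of 27 members of the NRF2 list were lower and 1 higher, 3 of 9 metallothioneins and zinc carriers were lower, and 8 of 50 in the ATF4 list were lower and 1 higher, against 2.55% and 4.76% of all genes. SLC7A11 (the cystine importer) was at 10.7 and 4.40 CPM with vehicle and at 14.5 and 3.85 CPM with the inhibitor, and fell by -1.60 ± 0.19 in the fit (edgeR adjusted p = 0.0001). NQO1 (a quinone reductase) was at 28.6 and 13.8 CPM, and GCLM (the modifier subunit of glutamate-cysteine ligase) at 17.3 and 8.32 CPM. The NRF2 list had a median of -0.17, or -0.07 with GC centring. Against 0.78% lower and 0.67% higher over all genes, 3 of 25 members were at least 2-fold lower and 1 was higher. That one was TKT (transketolase of the pentose phosphate path), at 436 and 891 CPM with vehicle and at 499 and 1016 CPM with the inhibitor, and the fit called it higher by 1.05 ± 0.14 (edgeR adjusted p = 0.00025). After GC centring TKT, GCLM, NQO1 and SLC7A11 stood at 0.88, -0.75, -0.92 and -0.94, short of 2-fold.

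HMOX1 (heme oxygenase 1) had 67 reads at 6 h and 8 reads at 72 h, 5.08-fold lower (2.43 to 12.2). Its mean was below 2 CPM, so it is not among the genes counted as 2-fold lower. MT1X (a metallothionein) was at 16.8 and 8.28 CPM, and all 5 measured members of its list lay below 0 as scaled, 3 of them after GC centring. In the ATF4 list of 46 measured members (median -0.09, 29 below 0), ATF3 was at 7.09 and 3.11 CPM, PPP1R15A (GADD34, which reverses eIF2α phosphorylation) at 25.6 and 12.6 CPM, and ASNS (asparagine synthetase) at 80.0 and 40.1 CPM with vehicle and at 69.2 and 32.3 CPM with the inhibitor. ATF4 itself was at 430 and 522 CPM. DDIT4 (REDD1, a brake on mTOR complex 1) was at 30.6 and 16.6 CPM with vehicle, but at 40.8 and 58.6 CPM with the inhibitor, so its direction differed between the pairs and the fit made no call (edgeR adjusted p = 0.80).

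Immediate-early and ERK feedback genes split. JUN (an AP-1 subunit) was at 13.3 CPM at 6 h and 5.74 CPM at 72 h, and DUSP5, matched from an older name, was at 8.68 and 4.01 CPM. KLF6 was at 24.8 and 14.1 CPM. Several other members lay higher: DUSP4 was at 2.80 and 7.03 CPM, ETV5 at 4.92 and 10.2 CPM, ETV4 at 1.15 and 3.11 CPM and DUSP6 at 66.5 and 102 CPM. The fit called 4 of 35 members lower (JUN, DUSP5, PHLDA1 and KLF6) and 6 higher, among them FOSL2, DUSP6, ETV5, DUSP4 and ETV4. Over all genes 2.55% were called lower and 4.76% higher. The list median of 24 members was 0.27 as scaled and -0.01 with GC centring, so it gives no direction. CXCL8 (interleukin 8) was the largest difference among cytokines, at 13.8 and 1.64 CPM with vehicle, 8.42-fold lower (6.06 to 12.04), and at 21.1 and 4.90 CPM with the inhibitor. The fit called 4 of the 32 cytokine and NF-kB genes lower and 3 higher, against 2.55% and 4.76% of all genes. ICAM1, an adhesion receptor that responds to NF-kB, was at 3.63 and 6.99 CPM with vehicle, and the fit called it higher by 1.42 ± 0.23 (edgeR adjusted p = 0.0016).

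**Figure D4:**
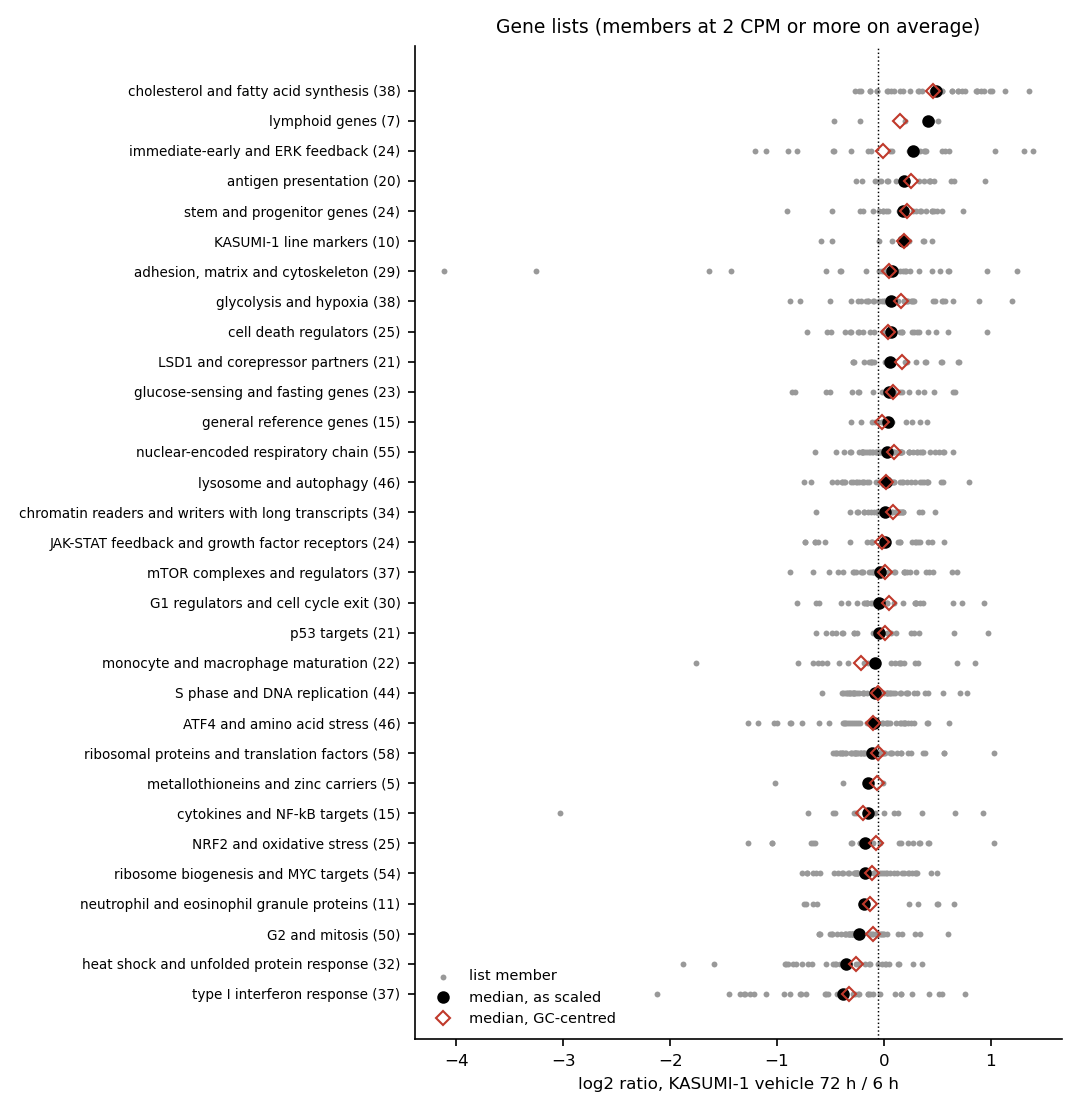
Log2 ratio of KASUMI-1 vehicle 72 h over 6 h (x axis) for members of each gene list with at least 2 CPM on average (y axis, number of members in brackets). Grey points are genes, black points medians as scaled, red diamonds medians after GC centring, and the dotted line is the median of all genes at -0.06. Cholesterol and fatty acid synthesis had the highest median at 0.49, and type I interferon response the lowest at -0.38.

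Genes of cholesterol and fatty acid synthesis were higher at 72 h with vehicle. Of 38 members, 31 lay above 0 and 3 were at least 2-fold higher, against 0.67% of all genes. The median log2 ratio was 0.49 (0.46 with GC centring, 35 above 0). SREBF2, the transcription factor of the path, was at 102 CPM at 6 h and 207 CPM at 72 h with vehicle, 2.02-fold higher (1.94 to 2.11), but at 105 and 129 CPM with the inhibitor. TM7SF2 (a sterol reductase) was at 15.6 and 39.9 CPM with vehicle and at 12.8 and 27.7 CPM with the inhibitor. FADS2 (fatty acid delta-6 desaturase) was at 134 and 293 CPM with vehicle and at 129 and 129 CPM with the inhibitor. After GC centring the log2 ratios of SREBF2, TM7SF2 and FADS2 were 0.86, 0.995 and 0.98, all short of 2-fold, while INSIG1, the sterol-sensing retention protein, stood at 1.001.

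MVD (mevalonate diphosphate decarboxylase) was at 20.97 and 41.7 CPM with vehicle, and FADS1 (fatty acid delta-5 desaturase) at 108 and 207 CPM. IDI1 (isopentenyl diphosphate isomerase) was at 282 and 241 CPM, among the 7 members below 0. The list median was -0.09 in the inhibitor pair. In THP-1 between 24 and 72 h it was 0.83 with vehicle and 0.68 with the inhibitor. Of the 4 time pairs, the KASUMI-1 inhibitor pair was the one without a median above 0. The fit, which averages the agents, called 8 of 40 members, all higher, against 4.76% of all genes. They were TM7SF2 by 1.25 ± 0.15 (edgeR adjusted p = 9.9e-05), FADS1 by 0.82, ACSS2 by 0.72, SREBF2 by 0.67, SREBF1 by 0.60, INSIG1 by 0.57, SCD by 0.56 and FDFT1 by 0.52. Only 1 of 31 promoters, that of SREBF2, held the sterol element searched.

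The 15 highest genes with at least 5 CPM spanned log2 ratios of 1.13 to 1.45. PBXIP1 was at 15.01 CPM at 6 h and 37.4 CPM at 72 h with vehicle, 2.49-fold higher (2.24 to 2.77), and at 15.5 and 44.3 CPM with the inhibitor. CREB3L4 (a membrane-bound CREB family factor) was at 14.9 and 33.7 CPM with vehicle and at 14.3 and 33.9 CPM with the inhibitor. ICAM4 (the Landsteiner-Wiener blood group protein) was at 14.2 and 33.7 CPM with vehicle and at 11.5 and 28.5 CPM with the inhibitor. INPP4B (a phosphoinositide 4-phosphatase) was at 3.35 and 8.02 CPM with vehicle and at 3.63 and 11.1 CPM with the inhibitor. In these 4 genes both 72 h libraries were above both 6 h libraries.

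PFKFB4 (which sets fructose 2,6-bisphosphate) and NEK5 (a NIMA-related kinase) were higher with vehicle alone. PFKFB4 was at 6.93 and 15.96 CPM with vehicle and at 5.50 and 5.53 CPM with the inhibitor. NEK5 was at 3.50 and 9.66 CPM with vehicle and at 5.70 and 5.23 CPM with the inhibitor. The fit made no call for them (edgeR adjusted p = 0.11 and 0.16). The others of the 15 were MIR1915HG, MFSD3, C19orf38, COMTD1, EVA1B, ITPKA and PWWP2B, with TM7SF2 and FADS2 above. The fit, which includes the vehicle pair by which these genes were picked, called 11 of the 15 higher. After GC centring 8 of the 14 with a GC value were still at least 2-fold higher, and FADS2, PWWP2B, ITPKA, EVA1B, COMTD1 and TM7SF2 stood between 0.80 and 0.995.

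Over the whole set, 53 of the 73 higher genes (72.6%) had a counting interval above equality in the inhibitor pair, against 37% of all genes, and 2 had one below. At least 2-fold in the same direction in both pairs were 21 of the 73 higher and 30 of the 85 lower genes. Across the 10891 genes the log2 ratios of the vehicle and inhibitor pairs, which share no library, correlated at 0.55, or 0.54 with both GC-centred. The correlation was 0.40 with THP-1 vehicle and 0.10 with THP-1 LSD1i. These are descriptions across genes, which share libraries, depth and base composition.

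**Figure D5:**
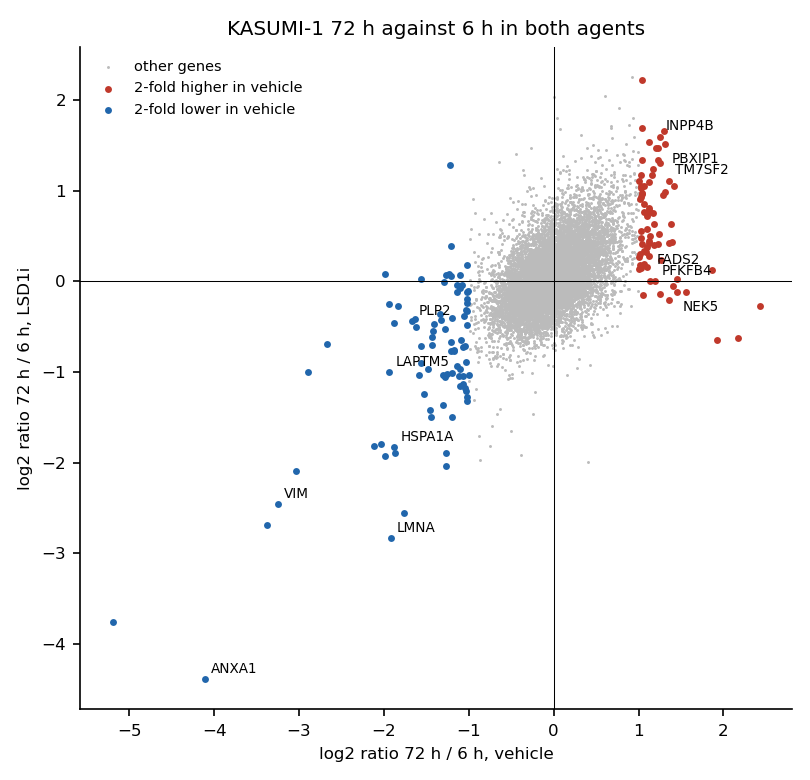
Log2 ratio of 72 h over 6 h in KASUMI-1 with LSD1i (y axis) against the same ratio with vehicle (x axis), 1 point per gene with at least 2 CPM in the vehicle pair. Of the blue genes (at least 2-fold lower with vehicle) 67 of 85 also had an interval below equality with the inhibitor, and of the red genes 53 of 73 had one above it. FADS2, PFKFB4 and NEK5 lie near 0 on the y axis.

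EEF2 (elongation factor 2, which moves the ribosome along mRNA) was the most abundant gene at least 2-fold higher. It was at 3063 CPM at 6 h and 6273 CPM at 72 h with vehicle, 2.05-fold higher (2.03 to 2.06), and at 3168 and 6554 CPM with the inhibitor, and rose by 1.06 ± 0.17 in the fit (edgeR adjusted p = 0.0011). With GC centring its log2 ratio was 0.81. The list of 58 ribosomal proteins and translation factors to which it belongs had a median of -0.11 with vehicle and 0.42 with the inhibitor, and RPLP1 was at 5821 and 4282 CPM with vehicle. The fit called 3 of the 58 higher, near the 4.76% of all genes called higher, and none lower. EIF4B, an initiation factor among those 3, was at 1008 and 1489 CPM and was higher by 0.65 ± 0.14 (edgeR adjusted p = 0.012).

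Antigen presentation and progenitor genes showed smaller differences that the fit called. Of 20 antigen presentation genes measured 15 lay above 0, with a median of 0.19 (0.25 with GC centring). PSMB9 (an immunoproteasome subunit) was at 1.67 and 3.28 CPM, NLRC5 (the activator of MHC class I genes) at 19.3 and 30.4 CPM, and HLA-E at 167 and 258 CPM with vehicle. The fit called 8 of 24, all higher, against 4.76% of all genes, led by PSMB9 at 1.35 ± 0.20 (edgeR adjusted p = 0.00079). The list median was 0.62 in the inhibitor pair, above that of the vehicle pair, which does not tell which pair each call rests on.

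Of 24 stem and progenitor genes 16 lay above 0 with a median of 0.18. LYL1 (a hematopoietic helix-loop-helix factor) was at 135 and 226 CPM, KIT (the stem cell factor receptor) at 504 and 687 CPM, and GATA2 at 23.8 and 33.7 CPM, while HLF was at 3.53 and 1.85 CPM and BAALC at 107 and 76.4 CPM. CD34 was at 553 and 620 CPM. The fit called 8 of 32 members, all higher: LYL1, GATA2, CD38, IGFBP7, GFI1, ANGPT1, ERG and FLI1, where 4.76% of all genes were called higher. The list median in the inhibitor pair was 0.44. That median does not tell which pair each call rests on: ANGPT1 had a log2 ratio of 0.55 with vehicle and 0.41 with the inhibitor.

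Granule protein genes split. Of 11 measured, 5 lay above 0 and 6 below, with a median of -0.18. The fit called 1 of 14 higher and 3 lower, against 4.76% and 2.55% of all genes. ELANE (neutrophil elastase), the one called higher (edgeR adjusted p = 0.025), was at 643 and 1013 CPM, and MPO (myeloperoxidase), with no call (edgeR adjusted p = 0.21), at 6260 and 8902 CPM. Called lower were the eosinophil granule genes RNASE2, at 39.9 and 25.2 CPM with vehicle and at 36.2 and 13.1 CPM with the inhibitor, RNASE3, at 3.11 and 1.85 CPM with vehicle, and PRG2, at 4.52 and 2.67 CPM. Of 22 monocyte and macrophage genes 12 lay below 0 (median -0.08). Among 49 such genes in the fit 5 were called lower and 2 higher, against 2.55% and 4.76% of all genes. In that list TREM2 was at 4.94 and 1.42 CPM and AIF1 at 69.8 and 40.03 CPM, and LYZ (lysozyme) was at 29.5 and 36.9 CPM.

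Genes of G2 and mitosis lay slightly lower at 72 h in the vehicle pair, with 44 of 50 below 0 (37 after GC centring), where 6162 of all 10891 genes lay below 0. Their median was -0.23 (-0.10 with GC centring). The 44 genes of S phase had a median of -0.08 with 23 below 0, and no member of either list was 2-fold apart. MKI67 was at 395 CPM at 6 h and 361 CPM at 72 h, and MYC at 360 and 490 CPM. In the inhibitor pair the median was -0.48 for the mitosis list and -0.43 for the S phase list. The fit, which averages both agents, called 9 of 50 mitosis genes lower and none higher, and 6 of 44 S phase genes lower and 1 higher, against 2.55% lower and 4.76% higher over all genes. CDKN1A (p21) was at 6.51 and 4.18 CPM and CDKN1C (p57) at 2.09 and 4.05 CPM.

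The target of the inhibitor and its partners were measured in these untreated cells as well. KDM1A (LSD1) was at 195 CPM at 6 h and 255 CPM at 72 h, a log2 ratio of 0.39 (0.34 to 0.44), which the fit did not call (edgeR adjusted p = 0.092). Its partners MTA1, at 55.2 and 90.1 CPM, and HMG20B, at 65.1 and 105 CPM, were called higher by 0.62 and 0.60. They were among 5 of 24 such genes called, all higher, against 4.76% of all genes. The list median was 0.05 with vehicle and 0.25 in the inhibitor pair, which does not tell which pair each call rests on. RUNX1, whose counts can include the fusion, was at 156 and 161 CPM, and RUNX1T1 at 75.9 and 79.8 CPM. The 37 measured genes of the mTOR complexes and their regulators had a median of -0.03. The glucose-sensing gene TXNIP was at 156 and 245 CPM with vehicle and at 157 and 397 CPM with the inhibitor, and rose by 1.01 ± 0.15 in the fit (edgeR adjusted p = 0.00091). GAPDH (6091 and 6313 CPM) and ACTB (1587 and 1566 CPM) were level.

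Over both agents the fit called 765 of 16060 genes higher and 409 lower at 72 h in KASUMI-1. The largest coefficients among better expressed genes (mean log2 CPM not under 2) included FCRLA (2.12) and GIMAP4 (1.58), but both were near absent from the vehicle libraries, with 3 and 0 reads for FCRLA and 1 and 2 reads for GIMAP4. LIMCH1 was at 2.69 and 5.61 CPM with vehicle and at 4.31 and 20.4 CPM with the inhibitor. The difference between the lines, KASUMI-1 from 6 to 72 h minus THP-1 from 24 to 72 h, passed the test in 158 genes (0.984%), 63 more positive and 95 more negative in KASUMI-1. Line and time span cannot be told apart in that contrast.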

How the data were processed

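Each of the 8 libraries was made from 500 ng of total RNA, per the labels. The file the authors deposited holds unnormalized whole-number counts of all 8. Per the file headers, featureCounts 1.5.2 counted reads on Ensembl release 54 genes of NCBI36; the submitters' processing notes name TopHat2 2.0.10 and hg18. The recorded command sets no strand option, so antisense or overlapping genes cannot be separated, and reads mapping to several places were left out.

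Names were matched to RefSeq symbols: 16840 were current, 3212 older and 12993 unmatched. Counts were scaled with TMM (edgeR 4.0.16, R 4.3.3). The vehicle ratio is log2 CPM with a prior count of 2 and an exact conditional binomial 95% interval; a gene was apart at 2-fold or more, an interval excluding equality and a mean of at least 2 CPM. The fit was edgeR's quasi-likelihood test on 16060 genes (filterByExpr, minimum count 10), with line, agent within line and time within line, 2 residual degrees of freedom, and Benjamini-Hochberg adjustment at 0.05. The spread behind each SE and p-value is how far the 2 agents of a line depart from a shared time effect, estimated over both lines. It holds any change of the inhibitor response with time as well as differences between single libraries, which may be technical. GC content came from the longest GENCODE 29 transcript (94.6% of genes). Scripts were tested on simulated data. Named genes were the 15 highest and 15 lowest ratios at 5 CPM or more, 28 genes named whatever their values, up to 5 members per direction of each of 35 lists, and the 5 highest and 5 lowest coefficients; some genes that this rule names are withheld and not reported here. Members, lists and rules were chosen with earlier results of these data known.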

Additional observations from a re-analysis of the deposited data

Results flagged for a closer look

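The change with time differed between the lines in 40 of the named genes reported here (the difference of time coefficients in the edgeR fit, KASUMI-1 minus THP-1, log2 scale, adjusted p from 6.4e-08 to 0.049 over all genes tested). Over all genes 158 of 16060 (0.984%) passed. Some of the 40 were named for their KASUMI-1 ratio or coefficient. The same libraries enter this contrast, so for those genes the result is no separate check. KASUMI-1 ran from 6 to 72 h and THP-1 from 24 to 72 h, so line and time span cannot be told apart, and both agents enter each coefficient.

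In 28 genes the KASUMI-1 effect was below that of THP-1. Among structural and adhesion genes the difference was -5.10 for S100A10, -3.83 for ANXA1, -3.78 for KIFC3, -2.77 for VIM, -2.43 for MCEMP1, -2.41 for LMNA and -1.36 for LGALS1. ANXA1 moved by -4.27 in KASUMI-1 and by -0.44 in THP-1, and VIM by -2.73 and 0.04. For the chaperone HSPA1A the difference was -1.99, and for the interferon-stimulated genes it was -2.15 (IFIT1), -1.94 (IFI44), -1.66 (IFIT2) and -1.19 (HERC6). IFIT1 moved by -1.46 in KASUMI-1 and by 0.69 in THP-1. Metallothioneins differed by -2.18 (MT2A) and -1.17 (MT1X).

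Mitosis genes differed by -1.40 (CENPE), -1.40 (KIF14) and -1.01 (MKI67), and in the whole G2 and mitosis list 21 of 50 genes passed this test, all with the lower coefficient in KASUMI-1, among 95 such genes in all. The MKI67 coefficients were -0.35 in KASUMI-1 and 0.67 in THP-1. For the cell cycle inhibitor CDKN1A the difference was -1.73. In the sterol and fatty acid synthesis list 11 of 40 genes passed, against 0.984% of all genes, also all with the lower coefficient in KASUMI-1. The difference was -1.71 for FADS2 (0.59 in KASUMI-1 and 2.29 in THP-1), -1.05 for STARD4 (-0.17 and 0.88) and -0.99 for IDI1 (-0.20 and 0.79). The rest of the 28 were ALDOC (-1.58), KLF6 (-1.34), JUN (-1.31), TLR4 (-1.22), LAPTM5 (-1.22), RNASE2 (-1.19) and LST1 (-1.02).

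In 12 genes the KASUMI-1 effect was above that of THP-1. The largest of these was ITGA6 (integrin alpha 6) at 2.71, from 0.81 in KASUMI-1 and -1.90 in THP-1. The others were PDLIM2 (1.57), TXNIP (1.17), PSMB9 (1.16), CD38 (1.14), GATA2 (1.11), INPP4B (1.08), ETV5 (1.02), TKT (1.01), GSDMD (0.94), NLRC5 (0.93) and NOB1 (0.86). TXNIP moved by 1.01 in KASUMI-1 and by -0.16 in THP-1.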

How the results depend on the processing

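With 1 library on each side, the count of genes apart in the vehicle pair rested on the level minimum: at 1 CPM 113 were higher, and at 5 CPM 41 were higher and 54 lower, against 73 and 85. GC centring, an alternative chosen after seeing the data, left 39 higher. With the 4 KASUMI-1 libraries alone, which leave 1 residual degree of freedom, the time fit called 313 genes higher and 177 lower, against 765 and 409. The difference between lines moved from 63 and 95 calls to 217 and 236 with no filter on low counts, to 27 and 60 at a minimum count of 50, and, for the lower side, to 145 with GC offsets, also chosen after seeing the data. The cause of these moves was not tested beyond the number of genes and libraries that enter. No named gene at least 2-fold apart changed its sign under any alternative run. This was close to given for ratios that far from equality. GC centring took 12 of these genes below 2-fold. It moved 7 of 33 list medians by over 0.1. The other scalings moved none, which was close to given, since they moved the median gene by 0.05 to 0.07. A level minimum of 1 CPM moved 4 list medians by over 0.1, and so did 5 CPM. No paired analysis was possible because each group held 1 library and the labels carry no replicate numbers. The 72 h vehicle library is the shallowest, and 3 reads there equal 0.129 CPM.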

Other observations

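A few genes were higher in the 72 h vehicle library than in any other KASUMI-1 library. They were picked after their values were seen. CLEC4GP1, a pseudogene of a C-type lectin, was at 0.680 CPM (26 reads) at 6 h and 3.88 CPM (90 reads) at 72 h with vehicle, 5.71-fold higher (3.66 to 9.21), and at 1.24 and 1.02 CPM with the inhibitor. LRRC2 was at 1.60 and 5.95 CPM with vehicle and at 2.17 and 2.38 CPM with the inhibitor. ZNF320 was at 1.54 and 4.18 CPM with vehicle and at 1.54 and 1.48 CPM with the inhibitor.

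Chromosome medians of the vehicle ratio followed base composition as well. The median log2 ratio was 0.16 on chromosome 19 and 0.10 on chromosome 22, and -0.16 on chromosomes 18 and 2. After GC centring these 4 chromosomes lay between -0.02 and 0.02.

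CCNA1 (cyclin A1, a cyclin of meiosis and leukemia cells), also picked after its values were seen, was at 5.65 and 1.51 CPM with vehicle and at 3.66 and 0.945 CPM with the inhibitor, 3.74-fold lower with vehicle (2.61 to 5.51).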
